A study of Arabidopsis thaliana with 12 samples.

Results

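The peaks described here are the binding regions of GFP-BRC1 that lie just outside the immediate flank of a gene, with their midpoint in no locus and more than 500 and at most 1000 bp from the edge of the nearest locus. Of the 4227 peaks in the deposited list, 718 (17.0%) met this rule, which uses position alone. BRC1 (BRANCHED1, also TCP18) is a plant transcription factor of the TCP family that acts in axillary buds, where it holds back outgrowth. TCP proteins bind short GC-rich sites, and in Arabidopsis BRC1 is known to act in part through abscisic acid (ABA), a hormone of drought response and dormancy. Regulatory DNA of Arabidopsis genes lies mostly close to the gene, but a peak between neighbouring genes cannot be given to one of them by position alone.

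Arabidopsis thaliana seedlings aged 10 days were given 10 uM estradiol and were harvested 5 hours later. The induced line carries GFP:BRC1ind, a fusion of green fluorescent protein and BRC1 that estradiol switches on, and its controls are seedlings of the brc1-2 knock-out under the same treatment label. RNA-seq was done on 3 induced and 3 brc1-2 libraries. Chromatin immunoprecipitation (ChIP-seq) with an anti-GFP antibody was made in the induced line, with 3 anti-GFP and 3 Input libraries; going by its name, the peak list keeps what the calls of anti-GFP samples 1 and 2 have in common. The label of the brc1-2 seedlings names the mutation and no transgene, the promoter of the transgene is not given in the labels, and the transgenic line without estradiol was not analysed here, so genotype and induced BRC1 cannot be told apart. The labels do not say whether libraries of a group came from separate cultures, and p-values therefore measure the spread between these libraries, which may be technical.

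Libraries held between 33176994 and 53385759 derived fragments and listed between 20566 and 21555 genes. BRC1 itself served as the check of the labels. It had 3370, 3421 and 3625 FPKM (a read count corrected for transcript length and sequencing depth) in the induced libraries, against 1.34, 1.66 and 2.2 FPKM in the brc1-2 libraries, and FPKM does not separate the transgene from the native gene. Whole seedlings hold shoot and root. The summed level of 4 photosynthesis genes chosen as shoot markers ran from 23649 to 27993 FPKM in the induced libraries and from 22617 to 31715 FPKM in the brc1-2 libraries, and 0 of the 4 passed the limma test (1 at an unadjusted p under 0.05, LHCB1.2, with a log2 change of -0.48). The summed level of 4 root markers ran from 24.3 to 26.4 FPKM in the induced libraries and from 134 to 151 FPKM in the brc1-2 libraries. Of these, the root hair genes EXPA7 and PRP3 and the root iron reductase FRO2 fell (3 of 4), and the root hair gene COBL9 did not pass the test. Single markers varied more than the sum between brc1-2 libraries 1, 2 and 3. There EXPA7 had 24.6, 15.1 and 12.3 FPKM, PRP3 38.9, 22.8 and 15.9 FPKM, and FRO2 64.3, 94.4 and 119 FPKM. In RNA of whole seedlings, fewer cells of a type and less RNA per cell cannot be told apart.

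The 718 peaks were spread over all 5 chromosomes, with 211, 111, 131, 105 and 160 peaks on chromosomes 1 to 5. Their median width was 422 bp (interquartile range 326 to 534.75 bp), against 382 bp for the 627 peaks inside loci, 390 bp for the 1839 peaks up to 500 bp away and 410 bp for the 1043 peaks beyond 1000 bp; these differences were not tested. Widths are those of the deposited entries; whether an entry is the stretch shared by the peaks of 2 samples or a whole peak is not given in the sources used here. In all, 119 peaks were under 300 bp wide and 16 were over 1000 bp. The list has no height, score or p-value, and strength of binding is therefore not described. The scatter of width against distance shows no part of the band without peaks.

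**Figure D1:**
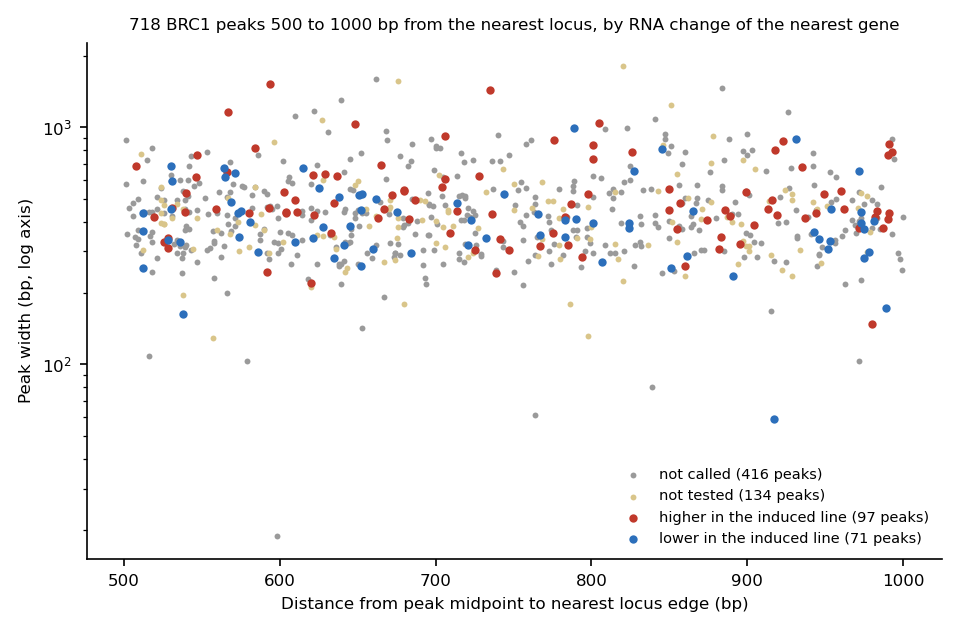
Width of each of the 718 peaks in bp (log axis) against the distance in bp from its midpoint to the nearest locus edge, one point per peak, coloured by the RNA call of the nearest gene in the induced line against brc1-2. Peaks whose nearest gene rose (97 peaks) or fell (71 peaks) occur over the whole distance range, and those with a nearest gene that rose have a median width of 453 bp against 394 bp where it fell.

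The distance to the nearest locus had a median of 717.5 bp, and the locus on the other side of the peak was a median of 1918.5 bp away (interquartile range 1214.75 to 3297.25 bp). The peaks thus lay in gaps between loci with a median length of 2623 bp. In 92 peaks (12.8%) both flanking loci were within 1000 bp, and in 204 peaks the other locus was more than 3000 bp away. The tables give no strand, and it was not analysed here whether a peak lies upstream or downstream of a gene. In 6 peaks the region itself reached into a locus, and in 362 its nearer edge was within 500 bp of one. Another peak midpoint lay within 1000 bp of 160 of the peaks (22.3%), against 14.5% for peaks inside loci, 10.4% for peaks up to 500 bp away and 21.4% for peaks beyond 1000 bp.

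At the limits of the rule, the members closest to 500 bp were peaks at 501 bp from PBC2, a proteasome subunit gene, at 501 bp from AT5G03190 and at 502 bp from AT2G31740. Just outside were peaks at 500 bp from OXS2 and from AT4G16563 and at 499 bp from AFP1, a negative regulator of ABA response. At the far limit stood members at 1000 bp from DGR2, at 999 bp from AT3G14560 and at 998 bp from TPPB, a trehalose phosphate phosphatase. Peaks at 1002 bp from RALFL4, 1003 bp from AT2G40270 and 1004 bp from the auxin response gene GH3.1 were just beyond. None of the nearest genes of these 6 members passed the RNA test, with log2 changes between -0.06 and 0.38. Among the 6 peaks outside, the nearest genes AFP1 (log2 change 2.4) and GH3.1 (-1.75) did.

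RNA was compared between the induced line and brc1-2 over all genes, to ask which genes flanking these peaks changed. The 718 peaks had 693 different nearest genes, besides 7 peaks whose nearest locus could not be matched to a single gene. Of the 693, 640 are annotated as protein coding, 589 were listed with RNA in at least 1 library and 569 passed the filter for testing (FPKM of at least 1 in 3 or more libraries). Of the 104 unlisted genes, 63 are protein coding.

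Among the 569 tested nearest genes, 92 rose in the induced line (16.2%), where 7.37% of all 21038 tested genes did, and 70 fell (12.3%), where 8.86% of all tested genes did (limma, adjusted p under 0.05). On the log2(FPKM + 1) scale used for all log2 changes here, a rise of 2-fold or more was seen in 44 (7.73%, against 1.64% of all tested genes), and a fall of that size in 19 (3.34%, against 2.86%). The median log2 change of the nearest genes was 0.062, beside 0.037 for all tested genes, and 407 of the nearest genes were called in neither direction. The values of the groups did not overlap for nearest genes in 27.4% upward and 21.8% downward, beside 20.8% and 18.1% of all tested genes. The tested nearest genes had a median level of 16.6 FPKM, against 14.1 FPKM for all tested genes.

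Both counts were smaller when a library was left out, and unevenly so. The number that rose was 63, 66 and 65 without induced libraries 1, 2 and 3, and 89, 71 and 89 without brc1-2 libraries 1, 2 and 3, which is 11.13% to 15.75% of those tested where all genes gave 3.43% to 6.53%. The number that fell was 31, 29 and 40 without induced libraries 1, 2 and 3, and 44, 45 and 55 without brc1-2 libraries 1, 2 and 3. These are 5.48%, 5.14%, 7.1%, 7.77%, 7.95% and 9.73% of those tested, where all genes gave 4.27%, 4.45%, 5.56%, 6.22%, 5.54% and 7.1%. In each of these 6 fits the share that rose or fell near these peaks was above that of all genes.

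Set beside the other peaks, the share of nearest genes that rose was 16.2% at 500 to 1000 bp, 25.6% of the genes with a peak inside, 26.9% up to 500 bp and 16.7% beyond 1000 bp. The share that fell was 12.3% at 500 to 1000 bp, against 8.13%, 8.17% and 15.0% in the same order. Of the tested genes with no peak in or within 1000 bp, 4.89% rose and 8.89% fell. These shares are a description and the differences between peak classes were not tested, since a gene can belong to more than 1 class.

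**Figure D2:**
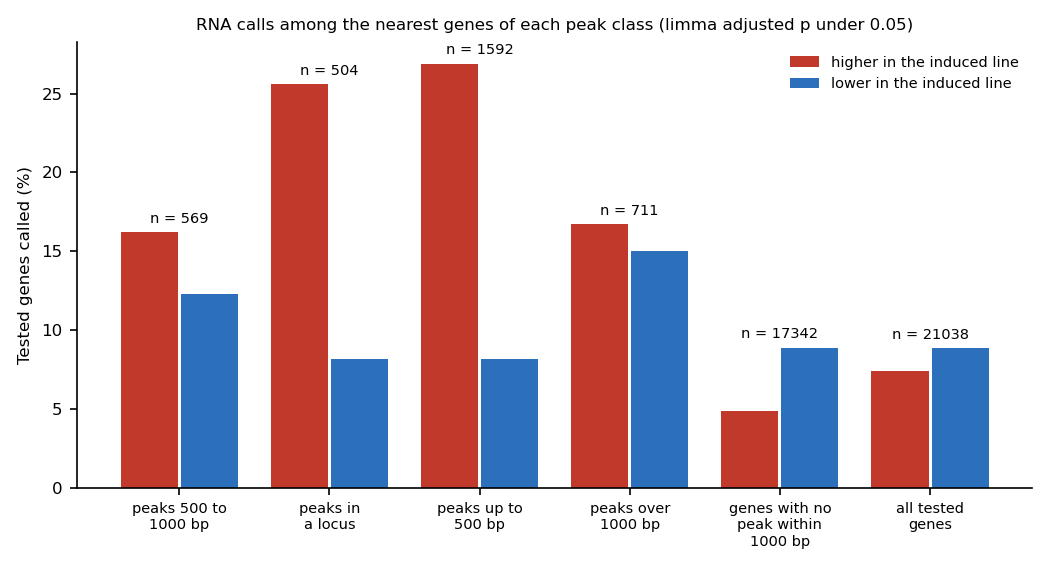
Percentage of tested genes that were higher or lower in the induced line than in brc1-2 (limma, adjusted p under 0.05), for the nearest genes of peaks 500 to 1000 bp away, genes with a peak inside, nearest genes of peaks up to 500 bp and beyond 1000 bp away, genes without a peak within 1000 bp and all tested genes, with the number tested above each pair of bars. The share that rose is 16.2% for peaks 500 to 1000 bp away, between the 7.37% of all tested genes and the 26.9% of genes near peaks up to 500 bp away. For peaks beyond 1000 bp it is 16.7%.

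Within the band, the share of nearest genes that rose differed most with the number of peaks at the gene. For 424 tested genes whose only peak in or within 1000 bp was the one described here, 45 rose (10.6%) and 58 fell (13.7%). Of all tested genes, 7.37% rose and 8.86% fell. With 2 peaks, 38 of 122 rose (31.1%) and 12 fell (9.84%). With 3 or more peaks, 9 of 23 rose (39.1%) and 0 fell by limma, although 1 was lower at an unadjusted p under 0.05. Of all nearest genes, 149 have a further peak in or within 1000 bp, besides the peaks described here for which they are the nearest gene. For these genes the peaks cannot be told apart.

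By width, the share that rose was lowest beside the narrowest peaks and highest in the third of 4 groups, a difference that was not tested. The peaks were sorted by width into 4 groups of nearly equal size, narrow to wide. In these, 13 of 139, 20 of 143, 32 of 140 and 30 of 155 tested nearest genes rose (9.35%, 14%, 22.9% and 19.4%). In the same order 18, 23, 17 and 12 fell (12.9%, 16.1%, 12.1% and 7.74%). Beside them, 7.37% of all tested genes rose and 8.86% fell, so the rises beside the narrowest and the falls beside the widest peaks were near those shares. Over distance there was no comparable order among the genes that fell, with 18, 17, 11, 10 and 15 in successive steps of 100 bp. In the same steps 18 of 144, 20 of 131, 20 of 109, 16 of 101 and 22 of 98 rose, so the share that rose was 12.5% in the step nearest to the gene and 22.4% in the farthest.

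**Figure D3:**
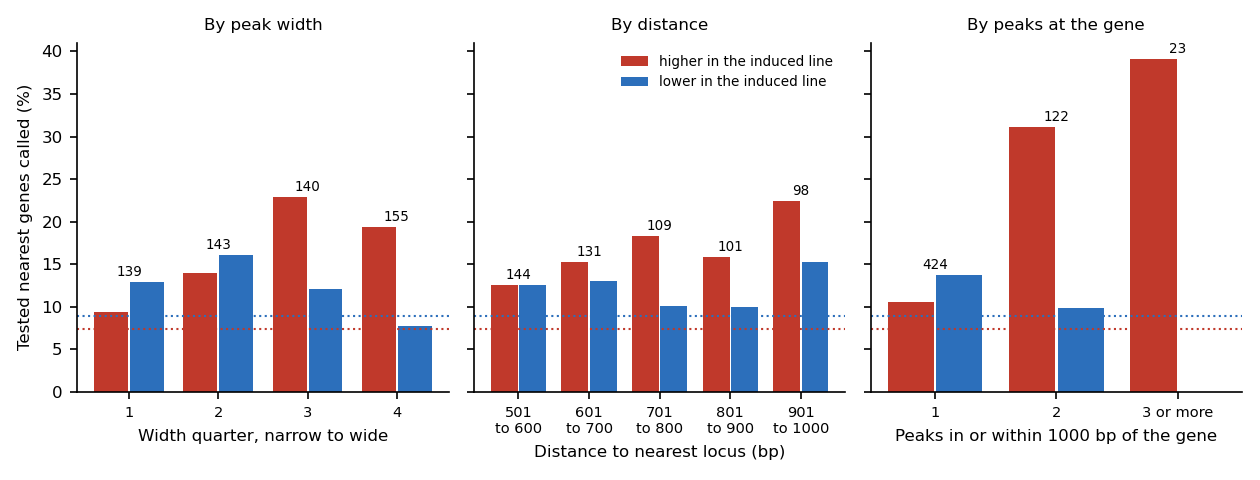
Percentage of tested nearest genes that were higher or lower in the induced line than in brc1-2, in 4 groups of peak width, by distance and by the number of peaks in or within 1000 bp of the gene; numbers above bars are genes tested and dotted lines are the shares of all tested genes. The share that rose is 10.6% for genes with 1 peak and 39.1% for genes with 3 or more.

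The largest rises next to these peaks include transporter and transcription factor genes. AT2G41190, of a family of membrane amino acid transporters, had 108, 106 and 106 FPKM in the induced libraries, against 5.52, 3.08 and 2.65 FPKM in brc1-2. The groups are far apart, and the log2 change was 4.55 ± 0.22 (SE; adjusted p = 0.000353 in limma). Its peak, on chromosome 2 from 17170240 to 17171761 (build TAIR10), is 1522 bp wide and has the only midpoint in or within 1000 bp of the gene. It is one of the 6 peaks that reach into a locus, and its ends overlap both AT2G41190 and its other neighbour. That gene, AT2G41200, 624 bp from the midpoint, had a log2 change of 0.24 and did not pass the test. ZF14 (AT1G58340), a transporter of the MATE family, had 31.2, 30.9 and 37.1 FPKM in the induced libraries, against 2.36, 2.54 and 5.4 FPKM in brc1-2, and a second peak reaches into its locus from the other end. AT1G49310 had 207, 232 and 212 FPKM in the induced libraries, against 27.0, 29.5 and 39.5 FPKM in brc1-2. Both rose, by log2 changes of 3.0 (SE 0.26, limma adjusted p = 0.00183) and 2.74 (SE 0.15, limma adjusted p = 0.000465).

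Transcription factor genes formed the next group. NAC019 (AT1G52890), a NAC factor of ABA and dehydration response, had 9.73, 17.2 and 18.6 FPKM in the induced libraries, against 1.11, 0 and 2.74 FPKM in brc1-2, where 0 stands for a library in which the gene was not listed. Its log2 change was 2.97 (SE 0.51, limma adjusted p = 0.0142), and the call was lost without induced library 2 (2.86, adjusted p = 0.0597) or 3 (2.81, adjusted p = 0.0513). ATMYB13 (AT1G06180), an R2R3-type MYB factor, had 76.0, 78.1 and 74.2 FPKM in the induced libraries, against 11.7, 13.7 and 10.6 FPKM in brc1-2. The 789 bp peak 993 bp from ATMYB13 on chromosome 1 (1888021 to 1888809) is the only one at the gene. LBD1, of the lateral organ boundary family, had 10.8, 10.7 and 14.5 FPKM in the induced libraries, against 2.16, 1.5 and 0.969 FPKM in brc1-2. KNU (KNUCKLES), a zinc finger repressor known from floral stem cells, had 5.2, 4.71 and 8.05 FPKM in the induced line and no entry in any brc1-2 library. A gene goes unlisted below about 10 fragments, and against that floor KNU was at least 12.4-fold higher. ETC1, a small MYB protein that shapes trichome and root hair fate, had 22.0, 20.6 and 20.5 FPKM in the induced libraries, against 5.3, 4.66 and 3.29 FPKM in brc1-2, beside a peak 1159 bp wide that reaches into its locus. The log2 changes were 2.58 for ATMYB13, 2.37 for LBD1 and 2.04 for ETC1, with limma adjusted p between 0.000236 and 0.00206. KNU had a log2 change of 2.77, but it passed the filter through the induced libraries alone. Its limma adjusted p of 0.00183 rests on brc1-2 values that were all set to 0 and hold no measured spread. Groups that do not overlap were part of the rule by which these genes were named.

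The other large rises fall outside these groups. BRG2, a RING finger protein, averaged 80.5 ± 1.97 FPKM in the induced line and 13.5 ± 2.93 FPKM in brc1-2, and APK3, an enzyme of sulfate activation, averaged 53.1 ± 2.15 and 10.8 ± 1.78 FPKM in the induced line and brc1-2 (SD, n = 3 each). AT1G68440, AT2G28140 and AT4G27657 rose by log2 changes of 1.88, 2.17 and 2.05. AT1G68440 had a peak of this distance on either side, at 889 and 559 bp, and 4 peaks in or within 1000 bp in all. AT4G24410 had 46.6, 9.09 and 9.13 FPKM in the induced line, from 22, 15 and 17 fragments, and no entry in brc1-2. It passed the test (log2 change 4.08, SE 0.62, limma adjusted p = 0.00967), but against the floor it was only at least 1.19-fold higher, and without induced library 1 that limit was 0.503. Like KNU, it passed the filter through the induced libraries alone.

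**Figure D4:**
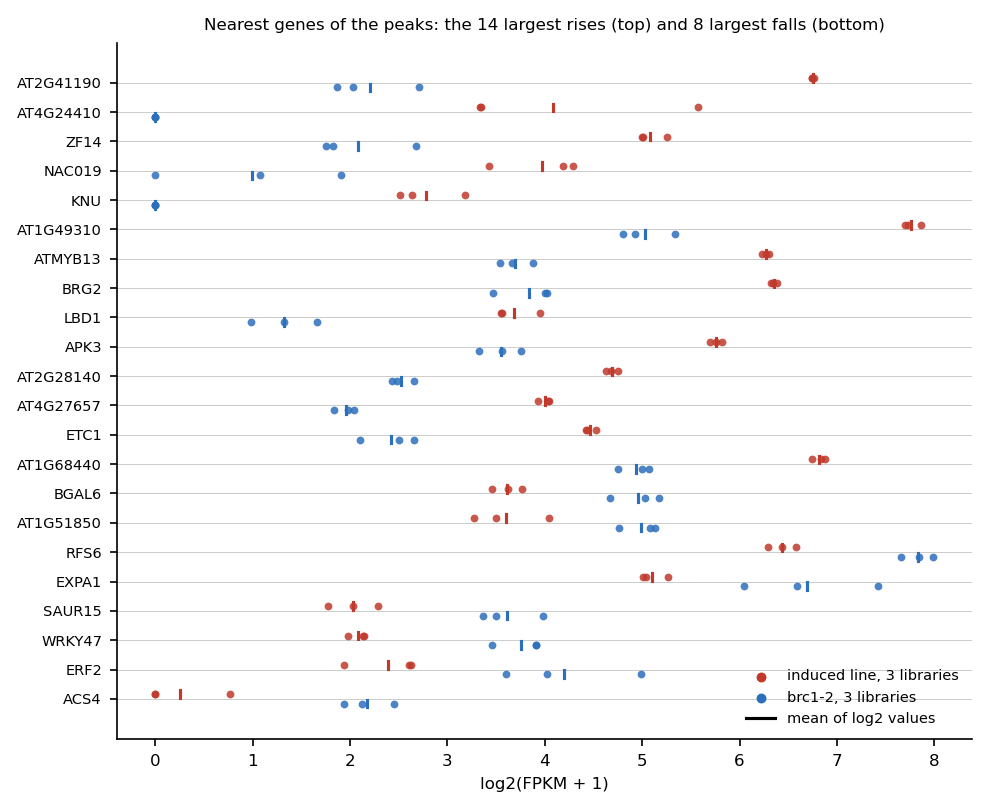
Level of the 14 nearest genes with the largest rises and the 8 with the largest falls, as log2(FPKM + 1) in each of 3 induced libraries (red) and 3 brc1-2 libraries (blue), with the mean of each group as a short bar. The 22 genes were picked among called genes whose groups do not overlap, and groups do not overlap in 38.9% of all tested genes. AT4G24410, KNU, NAC019 and ACS4 have libraries at 0, where the gene was not listed.

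The nearest genes that fell most include an ethylene synthesis gene, an ethylene response factor, a WRKY factor, an auxin-induced gene and 2 genes of cell wall proteins. ACS4, which makes the precursor of ethylene, had 0, 0 and 0.706 FPKM in the induced libraries, against 3.34, 2.83 and 4.46 FPKM in brc1-2. The single induced value came from 12 fragments, and the brc1-2 values from 215, 112 and 231 fragments. WRKY47, a WRKY transcription factor, had 3.39, 2.94 and 3.41 FPKM in the induced libraries, against 10.0, 14 and 14 FPKM in brc1-2. The log2 changes were -1.91 for ACS4 (SE 0.31, limma adjusted p = 0.0121) and -1.67 for WRKY47 (SE 0.15, limma adjusted p = 0.00197). A call and groups that do not overlap were part of the rule by which these genes were named. ACS4 passed the filter through the brc1-2 libraries alone, and its induced values of 0 stand for libraries in which it was not listed. SAUR15, a small auxin-induced RNA gene, had 2.41, 3.88 and 3.09 FPKM in the induced libraries, against 14.8, 9.32 and 10.3 FPKM in brc1-2. RFS6, a raffinose synthase family gene known to be induced in darkness, had 85.3, 77.3 and 94.4 FPKM in the induced libraries, against 229, 201 and 253 FPKM in brc1-2. SAUR15 and RFS6 fell by 1.59 and 1.4 on the log2 scale, with limma adjusted p of 0.00607 and 0.0017. The RFS6 peak, 789 bp away on chromosome 5 (6832375 to 6833365), is the only one at the gene, and the floral gene PI on the other side of that peak did not pass the test.

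The calls of ERF2 and EXPA1 were lost without any of several libraries, and their log2 changes varied with the brc1-2 library left out. ERF2, an ethylene response factor, had 2.83, 5.15 and 5.1 FPKM in the induced libraries, against 11.1, 15.2 and 30.7 FPKM in brc1-2. Its log2 change of -1.81 (limma adjusted p = 0.0289) lost its call without induced library 1, 2 or 3 or brc1-2 library 2 (log2 changes of -1.58, -1.93, -1.92 and -1.9, adjusted p of 0.0952, 0.0763, 0.0663 and 0.07 in limma). ERF2 kept its call at -1.42 without brc1-2 library 3, which had its highest value, and at -2.11 without brc1-2 library 1. EXPA1, an expansin that loosens cell walls, had 31.3, 31.9 and 37.4 FPKM in the induced libraries, against 171, 95.6 and 65.1 FPKM in brc1-2. Its log2 change of -1.58 (limma adjusted p = 0.0283) lost its call without the same 4 libraries in turn (-1.54, -1.55, -1.66 and -1.63, adjusted p of 0.0987, 0.0962, 0.0681 and 0.0741 in limma). EXPA1 kept its call at -1.21 without brc1-2 library 1, which had its highest value, and at -1.91 without brc1-2 library 3. BGAL6, a galactosidase of the cell wall, and AT1G51850 fell by 1.34 and 1.39 on the log2 scale. The root markers given above moved the same way as these genes, and their part in the falls was not tested.

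The 62 genes of 3 lists on ABA, dehydration and dormancy were followed to see which of them flank these peaks; the lists were chosen with earlier results of these data known and are no independent evidence. Of 32 genes of ABA signalling and synthesis, 24 were tested, 14 rose and 0 fell by limma (1 was lower at an unadjusted p under 0.05), beside 7.37% and 8.86% of all tested genes. The median log2 change was 0.61, beside 0.037 for all tested genes. The nearest gene of a peak described here was on this list in 2 cases, and both rose. ABF3, a bZIP factor of ABA response, had 52.9, 49.6 and 55.9 FPKM in the induced libraries, against 14.9, 13.4 and 13.3 FPKM in brc1-2, with its peak at 798 bp on chromosome 4 (16294371 to 16294892) and a second one reaching into the locus (log2 change 1.85, limma adjusted p = 0.000247). CYP707A2, which breaks down ABA, had 11.5, 8.38 and 10.4 FPKM in the induced libraries, against 3.23, 3.25 and 3.83 FPKM in brc1-2 (log2 change 1.31, SE 0.13, limma adjusted p = 0.00302). It has 3 peaks in or within 1000 bp, of which the one at 621 bp belongs here.

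On the far side of such peaks stood 3 more genes of the list. GBF3, a bZIP factor that binds G-boxes, was 927 bp from the midpoint of a 957 bp peak whose nearest gene was LRB1, at 631 bp. Another peak lies nearer to GBF3 and reaches into its locus. GBF3 averaged 17.4 ± 1.25 FPKM in the induced line and 6.3 ± 2.09 FPKM in brc1-2 (SD, n = 3 each), with a limma adjusted p = 0.00854 for a log2 change of 1.37, and LRB1 did not pass the test. PP2CA, a phosphatase that dampens ABA signalling, had 29.7, 28.1 and 31.5 FPKM in the induced libraries, against 19.5, 13.8 and 13.4 FPKM in brc1-2. Its call (log2 change 0.91, limma adjusted p = 0.012) was lost without induced library 1 (0.91, adjusted p = 0.0512). ABI1, a phosphatase of the same clade, had 27.8, 29.2 and 30.5 FPKM in the induced libraries, against 30.7, 26.1 and 27.3 FPKM in brc1-2, and the values overlap.

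Of 22 dehydration response genes, all tested, 9 rose and 2 fell, beside 7.37% and 8.86% of all tested genes (median log2 change 0.65), and 5 of the 22 were nearest genes of the peaks described here. ERD10, a dehydrin that protects cells from water loss, had 565, 679 and 547 FPKM in the induced libraries, against 170, 166 and 163 FPKM in brc1-2 (log2 change 1.83, SE 0.1, limma adjusted p = 0.000528). It has such a peak on each side, at 990 and 706 bp, and the first lies between ERD10 and the related dehydrin COR47, which is 1241 bp from its midpoint. Of the other peaks there, one lies inside ERD10 and one reaches into COR47 at its far end. COR47 had 1120, 1235 and 1239 FPKM in the induced libraries, against 415, 436 and 539 FPKM in brc1-2, and both neighbours of that peak rose (for COR47, log2 change 1.38, limma adjusted p = 0.00232). ATHB-7, a homeodomain factor induced by ABA, had 32.0, 33.0 and 38 FPKM in the induced libraries, against 22.8, 9.44 and 9.67 FPKM in brc1-2. Its call (log2 change 1.35, limma adjusted p = 0.0428) was lost without induced library 1, 2 or 3 (1.39, 1.37 and 1.27) and without brc1-2 library 2 or 3 (1.14 and 1.16), with limma adjusted p from 0.105 to 0.118. NAC019 is described above. The dehydrin ERD14 and the factor NAC055 did not pass the test, with log2 changes of 0.2 and 0.74; on derived fragments NAC055 passed (log2 change 1.35, limma adjusted p = 0.0252).

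NAC072 (also RD26), a dehydration-induced NAC factor, flanks one of the widest peaks, 1564 bp on chromosome 4 (13709090 to 13710653), at 723 bp on its far side, and the peak reaches into its locus. NAC072 had 13.7, 15.1 and 13.9 FPKM in the induced libraries, against 12.6, 8.15 and 12.6 FPKM in brc1-2, and did not pass the test (limma adjusted p = 0.228). The nearest gene of that peak, AT4G27415, was not listed. The widest peak (1810 bp, chromosome 4, 13091713 to 13093522) has as its nearest locus one that could not be matched to a single gene, and the peak of 1594 bp lay 662 bp from AT3G14240, which did not pass the test. Among the nearest genes of these widest peaks only AT3G14240 was tested, so they do not show whether width goes with a change in RNA. The narrowest entries, of 19, 59 and 61 bp, were nearest to PUB22, IAA9 and AT5G57700. Of these IAA9, an auxin response repressor, fell by 0.37 on the log2 scale (limma adjusted p = 0.0151), and this call was lost without induced library 1, 2 or 3 or brc1-2 library 2 (log2 changes of -0.37, -0.38, -0.37 and -0.35). Of 8 bud dormancy genes, 6 were tested, 1 rose and 1 fell, beside 7.37% and 8.86% of all tested genes (median log2 change 0.03), none was a nearest gene, and DYL1 (DRM1), on the far side of a peak at 968 bp, did not pass the test (log2 change -0.38, limma adjusted p = 0.258).

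**Figure D5:**
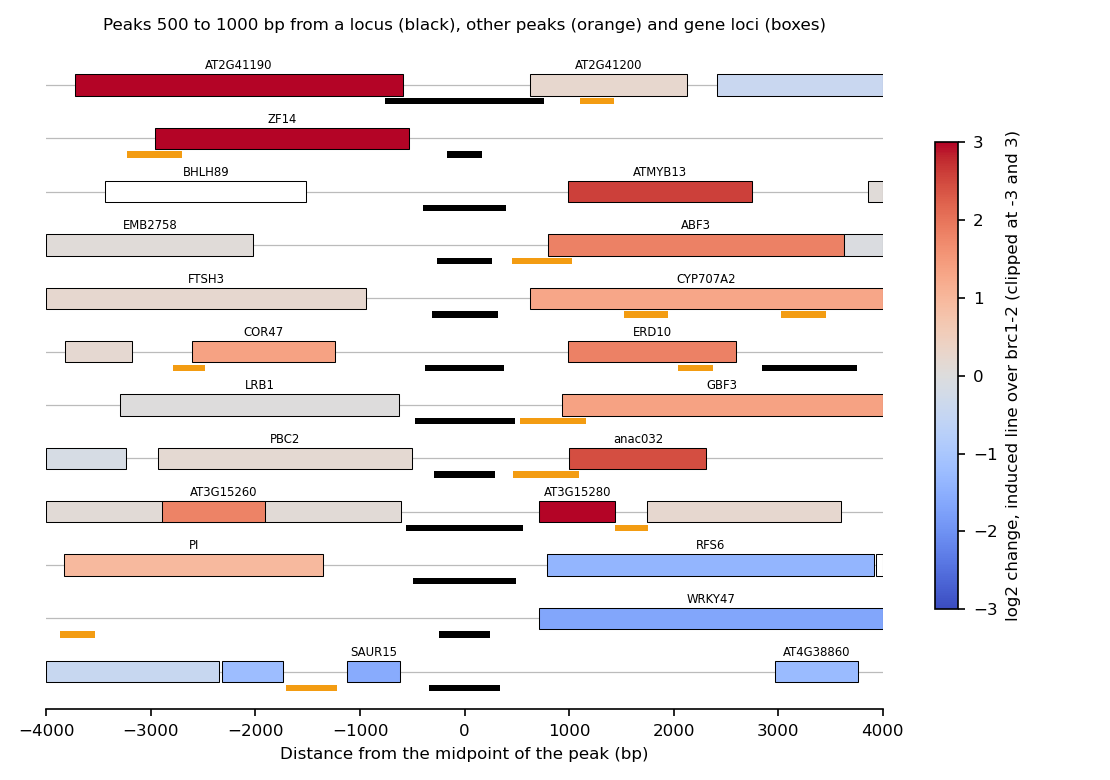
Position of loci (boxes, coloured by log2 change of the induced line over brc1-2, white where not tested), peaks 500 to 1000 bp from a locus (black) and other peaks (orange) around 12 peaks, with the distance in bp from the peak midpoint on the horizontal axis and 4000 bp shown on either side; the 12 were chosen after their values were seen. The peak between COR47 and ERD10 has a gene that rose on each side, and the peak beside GBF3 is nearer to LRB1, which did not pass the test.

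Genes on the far side of the peaks were examined in the same way, leaving out those that are nearest genes of another such peak. Of 633, 489 were tested, 63 rose (12.9%, against 7.37% of all tested genes) and 60 fell (12.3%, against 8.86%), with a median log2 change of 0.026. Without induced libraries 1, 2 and 3, 36, 36 and 41 rose and 26, 25 and 35 fell, and without brc1-2 library 2, 44 rose and 39 fell. Without induced libraries 1, 2 and 3 the rises were 7.42%, 7.45% and 8.51% of those tested, where all genes gave 3.43%, 3.88% and 4.09%. The falls were 5.36%, 5.18% and 7.26%, nearer to the 4.27%, 4.45% and 5.56% of all genes. Where the far gene was itself within 1000 bp, 14 of 71 rose (19.7%) and 8 fell. At 1000 to 3000 bp 35 of 291 rose (12%) and 33 fell (11.3%), and beyond 3000 bp 14 of 127 rose (11.0%) and 19 fell (15.0%).

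BRC1 itself, 5695 bp from the midpoint of a peak, is counted among the far-side genes that rose. It is the gene that estradiol switches on, and FPKM does not separate the transgene from the native gene. After BRC1, the largest rise was that of LBD42, another lateral organ boundary gene. LBD42 had 14, 12.7 and 13 FPKM in the induced line and no entry in brc1-2, which makes it at least 42.6-fold higher against the floor, and it lay 3768 bp from the midpoint. AT3G15280 had 8.56, 6.58 and 7.78 FPKM in the induced line and likewise no entry in brc1-2 (at least 12.3-fold higher), at 714 bp from a peak of 1119 bp, with another peak at the other edge of its locus. LBD42 and AT3G15280 passed the filter through the induced libraries alone, and their brc1-2 values set to 0 hold no measured spread. SWEET15, a sucrose transporter of seeds and senescing leaves, rose by 2.98 ± 0.43 on the log2 scale (SE; adjusted p = 0.00819 in limma) but lies 12329 bp away. ANAC032 (AT1G77450), a NAC factor, had 141, 159 and 155 FPKM in the induced libraries, against 27.5, 23.7 and 28.9 FPKM in brc1-2 (log2 change 2.46, limma adjusted p = 0.000236). It is 1003 bp from the midpoint of the peak that is 501 bp from PBC2, and a second peak reaches into its locus; PBC2 itself did not pass the test (log2 change 0.18). PRN1, a pirin protein, rose by a log2 change of 2.1.

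Of the 4 largest falls on the far side, 3 were in genes known from roots. IRT1, the main iron importer of root epidermis, had 42.0, 40.0 and 35.6 FPKM in the induced libraries, against 176, 210 and 340 FPKM in brc1-2 (log2 change -2.54, SE 0.24, limma adjusted p = 0.00249), and was 4035 bp from the midpoint of a peak next to BOI. The class III peroxidases PER73 and PER57 fell by 1.84 and 1.68 on the log2 scale, at 4649 and 2169 bp. Beside them stand the root markers, of which 3 of 4 fell. Their summed level was 24.3 to 26.4 FPKM in the induced libraries and 134 to 151 FPKM in brc1-2, where single markers varied more, as given above. The part of the root markers in these falls was not tested. AtRLP21, a receptor-like protein, had 0, 0 and 1.75 FPKM in the induced libraries, against 3.8, 3.9 and 3.67 FPKM in brc1-2. Its log2 change of -1.77 (limma adjusted p = 0.043) lost its call without any 1 library other than induced library 3 (-1.53 without induced library 1 or 2, -1.77, -1.76 and -1.79 without brc1-2 libraries 1, 2 and 3) and with a pseudocount of 0.5 (-2.38, limma adjusted p = 0.0566).

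For 451 peaks the genes on both sides were tested. Both rose at 15 of them, both fell at 6, and at 9 they moved in opposite directions. At 102 peaks 1 gene rose and the other was not called, at 91 peaks 1 fell and the other was not called, and at 228 peaks neither was called. Over all 718 peaks, 160 (22.3%) had at least 1 flanking gene that rose, 134 had at least 1 that fell, and 433 had no flanking gene that was called. Of all single tested genes, 7.37% rose and 8.86% fell. A peak has a gene on each side, and no share for neighbouring pairs over all genes was set beside these counts. They are therefore not read as a trait of these peaks.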

How the data were processed

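Gene levels came from 6 deposited tables in Cufflinks layout, per the file headers, with FPKM computed by the authors. The peak positions are those of the deposited list, which holds only chromosome, start and end. Bowtie, TopHat, Cuffdiff, Bowtie2, MACS2 and the build TAIR10 are named without role or version in the submitters' processing notes; how the peaks were called, their threshold and the overlap needed are not given in the sources used here. The anti-GFP and Input libraries are known here only through that list, and their reads or separate peaks were not analysed here.

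Distances ran from peak midpoints to the loci of all table rows on chromosomes 1 to 5 (32883 annotated and 195 assembled loci). Several pieces of 1 gene were summed, and genes absent from a table were set to 0. Symbols came from the tables and, for names and gene types only, from a RefSeq gene table of TAIR10.1. Fragment numbers were derived from the confidence bounds of each FPKM value, as the square of 2 × FPKM over the upper bound minus FPKM; no listed piece had fewer than about 10. Intervals and floors from fragments cover counting error only. No genome sequence was used, and the tables give no strand.

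Genes with at least 1 FPKM in at least 3 of 6 libraries (21038) were fitted on log2(FPKM + 1) with limma 3.58.1 in R 4.3.3, induced line over brc1-2, with trended variance and Benjamini-Hochberg adjustment over all tested genes at a threshold of 0.05. A fold change on this scale understates changes of low genes. An exact permutation test of 3 against 3 libraries cannot go below p = 0.1 and was not used for single genes. The fit and the assignment of peaks were tested on simulated data.

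The peaks, gene lists and tests were chosen with earlier results of these data known. Named were BRC1, the 14 largest rises and 8 largest falls among called nearest genes with groups that do not overlap, the 6 and 4 largest among genes on the far side, flanking genes of the lists, and the nearest genes of the 3 widest, the 3 narrowest and the 3 peaks closest to each limit. Alternatives were other pseudocounts (0.5 and 5), filters, scaling, locus sets and peak subsets, a replicate block, and each library left out; a fit on derived fragments scaled to depth was added after the data were seen.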

Additional observations from a re-analysis of the deposited data

How the results depend on the processing

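Leaving out each library in turn gave 63 to 89 nearest genes that rose (92 with all libraries), 29 to 55 that fell (70), 36 to 59 genes on the far side that rose (63), 25 to 44 that fell (60), and over all genes 716 to 1354 higher (1550) and 893 to 1473 lower (1863). Derived fragments scaled to depth gave 2808 lower genes over all genes, and the cause was not tested. Of the nearest genes with 1 peak only, 45 of 424 rose (10.61%, against 16.17%). Of those beside peaks of at least the median width, 34 of 329 fell (10.33%, against 12.3%) and 69 rose (20.97%). All tested genes gave 7.37% that rose and 8.86% that fell. The cause of these differences was not tested. Measured from the edge of the peak, the band held 545 peaks with a median width of 401 bp; the numbers of peaks were 714 with annotated loci and 679 with listed genes only. Libraries rescaled to equal medians gave 1876 higher and 1832 lower genes. The median log2 change of nearest genes stayed between 0.038 and 0.082. Same-numbered libraries of the groups deviated together with correlations of 0.082, 0.06 and 0.193, and 4 of 6 libraries correlated best with their own number. The labels state no batch or pairing, so the main test did not take the numbers as pairs. Whether they are pairs was not settled. With a replicate block, 89 nearest genes rose (85 shared with the main test) and 64 fell (54 shared), 1322 genes rose and 1667 fell over all genes, and the calls of EXPA1 (limma adjusted p = 0.0566), AtRLP21 (0.0675) and ATHB-7 (0.0678) were lost. AtRLP21 was also lost at a pseudocount of 0.5 (0.0566). NAC055 passed with the block (limma adjusted p = 0.0241) and with derived fragments (0.0252). Of 683 comparisons over 54 named genes, 649 kept their side of the threshold, 29 lost it and 5 gained it. Among genes called in either fit, 0 changed direction. The uncalled AT3G14240 went from a log2 change of 0.08 to -0.04 without brc1-2 library 3. KNU, AT4G24410, LBD42 and AT3G15280 did not pass the filter with any induced library left out, nor did ACS4 with any brc1-2 library left out. Their calls were therefore not checked in those fits. Depth limits genes near 10 fragments, such as AT4G24410 and ACS4.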

Other observations

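At 6 of the peaks the tested genes on both sides fell, and at 15 both rose, with no share for neighbouring pairs over all genes beside these counts. The genes named here were picked after their values were seen. The pairs that fell include neighbours of the same family, and how reads shared by such copies were counted is not given in the sources used here. SAUR15 and AT4G38860 fell by 1.59 and 1.27 on the log2 scale on either side of a peak 672 bp wide. AT1G51850 and AT1G51840 fell by 1.39 and 1.56, and AT1G51790 fell by 1.07 with IOS1, a receptor-like kinase, which fell by 1.42. SCPL8 and SCPL13, both of the serine carboxypeptidase-like family, fell by 0.83 and 0.57.

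Among pairs that rose, AT1G10380 had 20.9, 21.0 and 20.2 FPKM in the induced libraries, against 9.94, 9.74 and 8.87 FPKM in brc1-2. Its neighbour GSTU17, a glutathione transferase, had 119, 125 and 113 FPKM in the induced libraries, against 35.4, 33.4 and 71.3 FPKM in brc1-2. AT5G20110 and AT5G20120 rose by log2 changes of 1.62 and 0.74. AGL18, a MADS-box factor, rose by 1.04 and AT3G57400 by 0.57. ACO1, an enzyme of ethylene synthesis, rose by 0.89 and KEA4 by 0.44, with 29.7, 26.9 and 25.6 FPKM of ACO1 in the induced libraries, against 14.2, 17.5 and 11.8 FPKM in brc1-2. ACO1 acts in the same pathway as ACS4, which fell.

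At 18 nearest genes 2 peaks of this distance were found. Of these genes 15 were tested, 5 rose and 1 fell, where 7.37% and 8.86% of all tested genes did. The 5 are ERD10, AT1G68440, AGP12 (log2 change 0.95), AT5G49280 (0.77) and CAS (0.36), and the gene that fell is TBL10 (-0.73).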
